A study of Gallus gallus with 9 samples.

Results

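The genes described here are the 160 transcripts of the chick dorsal mesentery whose level at least doubled in each of 2 successive steps of intestinal looping. Poly(A) RNA was sequenced at embryonic day 8 (E8), at the onset of looping, at E12, while loops were forming, and at E16, when the loops were complete. The genes were chosen on their measured levels: the mean level at E12 was at least 2 times that at E8, the mean at E16 was at least 2 times that at E12, and the mean at E16 was at least 10 CPM. CPM is the number of reads counted in a gene per M (mega) of reads counted in all genes, here scaled between libraries with TMM factors, which bring the typical gene to the same level in every library. The 160 genes are 1.13% of the 14172 genes that reached 1 CPM in at least 3 of the 9 libraries, out of 24356 genes counted. Because all 9 libraries entered the choice, the rise itself is a description and no test is offered for it.

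All embryos were wild-type White Leghorn. Each stage had 3 libraries, and each library was a pool of mesenteries from 3 embryos, from which the intestinal tube and the superior mesenteric artery had been dissected away. A library therefore averages embryos, and p-values refer to the spread between pools. In such bulk tissue, more cells of a type and more RNA per cell cannot be told apart. The counts carry Ensembl gene IDs without symbols, and the RefSeq gene table used here has 0 entries in its column for Ensembl IDs, so it could not name any of the 24356. Gene names, roles and the marker genes of the mesentery were therefore not analysed here, and 2 genes are given by ID.

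The dorsal mesentery is a thin connective-tissue sheet, covered by mesothelium, that tethers the gut to the body wall and carries its vessels and nerves. The gut tube elongates faster than the sheet attached to it, the mismatch compresses the tube, and the tube buckles into loops whose size depends on the growth and the stiffness of the mesentery. Stiffness of connective tissue depends on its extracellular matrix, including elastic fibres, in which elastin is deposited on fibrillin microfibrils and cross-linked by lysyl oxidases. The study sampled the stages of looping on the ground that genes for mesentery growth and stiffness should be regulated over them.

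The libraries held 23.0 to 30.6 M counts in genes, and 1 count corresponded to 0.0305 to 0.0454 CPM. Reads that fell outside the annotation were 20.04% ± 0.316 of the total in E8 libraries, 13.7% ± 2.79 in E12 libraries and 19.3% ± 0.948 in E16 libraries (SD, n = 3 per stage), so this library property moved with the stage.

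As a group, the 160 genes took up a growing share of the transcriptome. Their summed level was 1718, 1729 and 1593 CPM in E8 replicates 1, 2 and 3, then 5168, 6780 and 5360 CPM in the E12 replicates, and 16212, 19497 and 17305 CPM in the E16 replicates. Every E12 library lay above every E8 library, and every E16 library above every E12 library. The choice on stage means fixed in advance that the mean sum rose at each step, so these sums only describe the group. Without TMM scaling, their share of the gene counts was 0.185% ± 0.00980 in E8 libraries, 0.532% ± 0.0461 in E12 libraries and 1.73% ± 0.175 in E16 libraries (SD, n = 3 per stage). The level of the median gene among the 160 followed the same course, with 3.26, 11.8 and 50.3 CPM at the stages in that order, while the median of all 14172 genes was 25.5, 23.3 and 25.01 CPM. The steadily rising genes thus lay mostly in the lower part of the expression range at the start: 22 of them exceeded the median of all genes at E8, 57 at E12 and 105 at E16. The choice required a doubling in each step and at least 10 CPM at E16, so these counts too are in part set by the choice.

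**Figure D1:**
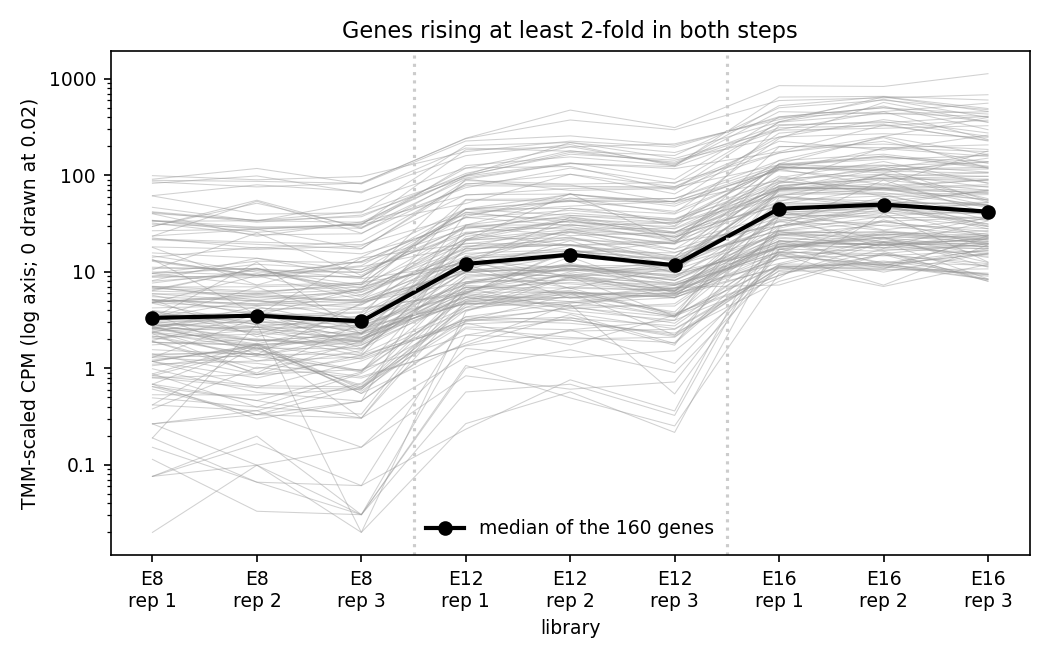
TMM-scaled CPM (log axis) of the 160 steadily rising genes in the 9 libraries, 1 grey line per gene, with the median over the genes as black points; a value of 0 is drawn at 0.02. The median is between 3.07 and 3.51 CPM in the E8 libraries, 11.7 and 15.0 CPM in the E12 libraries and 41.9 and 49.7 CPM in the E16 libraries.

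At E8 and at E16, none of the 160 was among the 100 highest of the 14172 genes tested, and the best rank that any of them reached at E16 was 130. The 100 are so small a part of all genes that any group of 160 may hold none, so this only describes the group. At E16, 47 of the 160 had at least 100 CPM and 19 had at least 300 CPM. The shares of all genes at these levels are not given here, so whether these counts are unusual cannot be told. The 10 highest at E16 ranged from 432 to 933 CPM there, and they already had 29.3 to 96.4 CPM at E8 and 135 to 342 CPM at E12. They made up 31.5% of the summed level of the group at E16 and 38.6% at E8, so their weight within the group was somewhat smaller at the end than at the start. Genes that were high at one stage tended to be high at the next. Across the 160 genes, which are not independent replicates and share the same libraries, Spearman's rho was 0.90 between the E8 and E12 levels, 0.89 between the E12 and E16 levels and 0.78 between the E8 and E16 levels, against 0.91 between E8 and E16 for all 14172 genes. The values of all genes between successive stages are not given here, so the 0.90 and 0.89 show nothing particular to the 160. The limits of the choice act on these same levels, so the values for the 160 are in part set by the choice.

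The gene with the highest level at E16 was ENSGALG00000004521. It had 88.5, 86.3 and 82.3 CPM in E8 replicates 1, 2 and 3, then 241, 472 and 311 CPM in the E12 replicates and 846, 830 and 1125 CPM in the E16 replicates. The 3 stages did not overlap, and E12 replicate 2 stood above the other two E12 libraries. The stage means were 85.7 ± 3.12, 342 ± 119 and 933 ± 166 CPM in that order (SD, n = 3 per stage). The log2 fold change was 1.99 (SE 0.22) for E12 against E8 and 1.45 (SE 0.21) for E16 against E12. When the fit also held the share of reads outside the annotation, these values were 0.81 and 2.499. The division of its rise between the steps thus differed with and without that share in the fit. The share moved with the stage, so which division holds cannot be told from these libraries.

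The gene with the largest rise from E8 to E16 was ENSGALG00000033171, which had few reads at the start. It had 26, 17 and 15 counts in E8 replicates 1, 2 and 3, or 0.989, 0.563 and 0.457 CPM. In E12 replicates 1, 2 and 3 it had 30.3, 58.4 and 40.4 CPM, and in the E16 replicates 240, 567 and 354 CPM. These 3 sets of values were far apart, and the E16 libraries differed among themselves by more than 2-fold. The ratio of stage means was 64.3 for E12 over E8 and 8.99 for E16 over E12, and the log2 fold changes were 6.03 (SE 0.44) and 3.17 (SE 0.33). With the share of reads outside the annotation in the fit they were 4.93 and 4.15. At E16 it ranked 14 among the 160 by level.

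**Figure D2:**
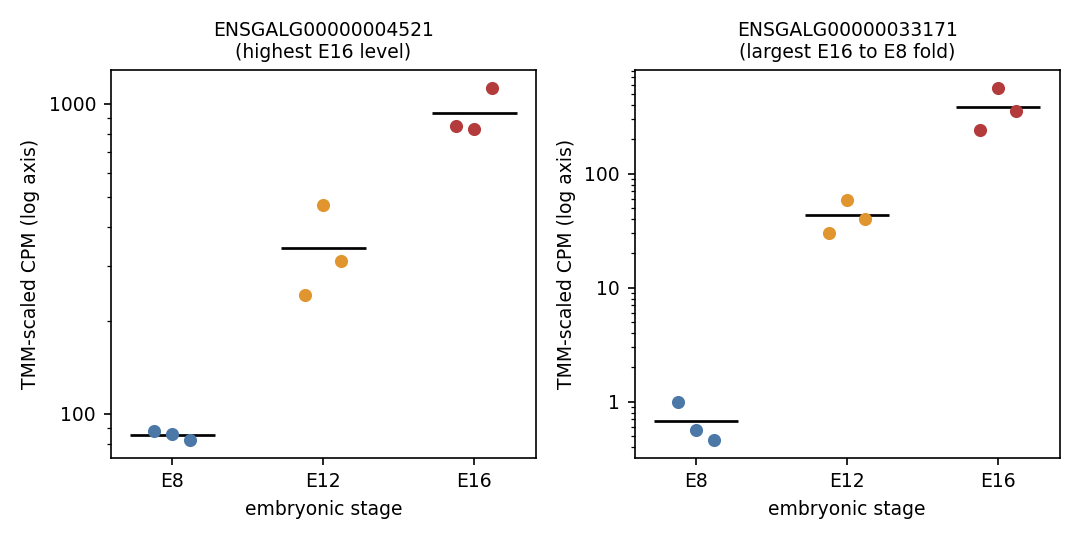
TMM-scaled CPM (log axis) of the gene with the highest E16 level, ENSGALG00000004521 (left), and of the gene with the largest rise, ENSGALG00000033171 (right), at E8, E12 and E16. Points are the 3 libraries of a stage in replicate order and bars are their means; the means are 85.7, 342 and 933 CPM on the left and 0.670, 43.0 and 387 CPM on the right.

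Most of the 160 genes rose by a few fold per step. The fold of stage means for E12 over E8 had a median of 3.68 and quartiles of 2.46 and 5.27, and for E16 over E12 a median of 2.92 and quartiles of 2.41 and 4.56. Over both steps the median rise was 11.2-fold, with a lowest value of 4.14 and quartiles of 8.29 and 23.3. For all 14172 genes the median fold was 0.99 for E12 over E8, 1.00 for E16 over E12 and 0.96 for E16 over E8. Both folds stayed below 4 in 66 of the 160 genes, and both reached 4 in 25. A fold of at least 8 was found for 21 genes in the first step and for 20 in the second.

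The genes differed in which step contributed more. With TMM scaling, the log2 rise was larger in the first step for 89 genes and larger in the second for 71. The folds of the 2 steps were within 1.5 times of each other for 70 genes, the first exceeded the second by more than that for 49, and the second exceeded the first by more than that for 41. On the log2 scale, with 0.1 CPM added, the level at E12 lay near the middle of the course. The median gene had covered 48.7%, 56.2% and 49.3% of its log2 rise in E12 replicates 1, 2 and 3. The choice required a doubling in each step, which kept E12 away from both ends of the course. A place near the middle, and folds close to each other, are therefore in part set by the choice. The balance of the steps was not settled by these values. The group's median log2 fold changes were 1.88 and 1.55 in the first and second steps. With the share of reads outside the annotation in the fit, they were 1.55 and 1.86. Scaling moved the steps too: with total counts the medians of all genes were -0.26 and 0.07, against -0.01 in both with TMM.

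**Figure D3:**
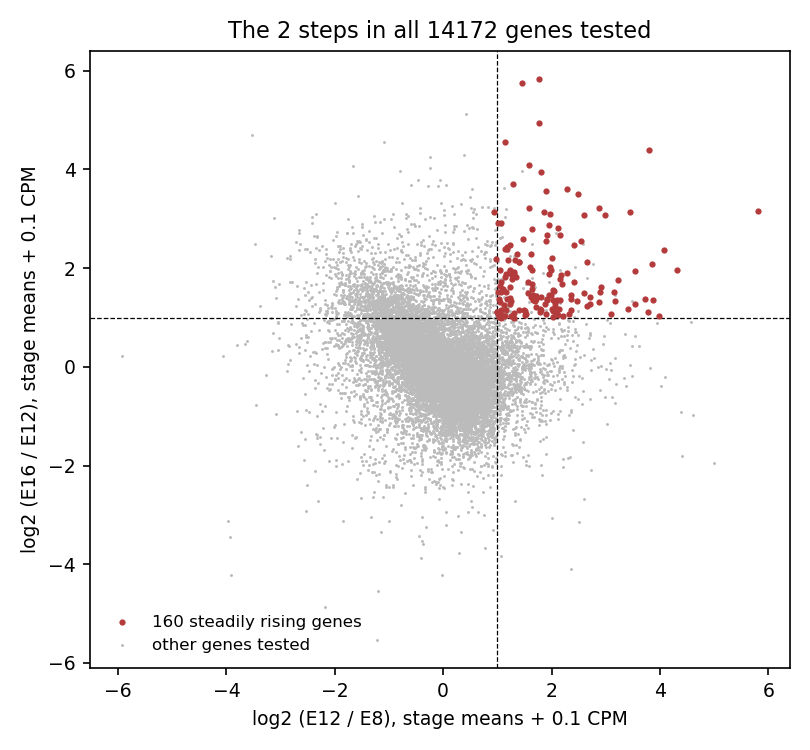
The log2 ratio of stage means for E12 over E8 (horizontal) and for E16 over E12 (vertical) in all 14172 genes tested, with the 160 steadily rising genes in red and the others in grey. A constant of 0.1 CPM was added to each mean for plotting, so a few red points lie just outside the dashed lines at a 2-fold rise, and the grey points in the upper right are genes under 10 CPM at E16.

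The starting level at E8 ran from 0.0331 to 96.4 CPM, with quartiles of 1.36 and 10.1 CPM, and was divided here at 1 and 10 CPM. At E8 the mean was under 1 CPM for 26 genes, 1 to 10 CPM for 93 and at least 10 CPM for 41. No gene was without counts in all 3 E8 libraries, and 2 had 0 counts in at least 1 of them. The lowest had 3 counts over the 3 E8 libraries, and its fold rests on those few counts. The genes under 1 CPM at E8 had a median fold of 6.18 in the first step and 8.10 in the second, and reached a median of 17.2 CPM at E16. Those that started at 1 to 10 CPM had median folds of 3.22 and 2.87 and reached 35.0 CPM. Those that started at 10 CPM or more had median folds of 3.13 and 2.60 and reached 255 CPM. The low starters had to rise further to reach the level of 10 CPM that the choice required, so the larger folds among them are in part set by the choice.

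**Figure D4:**
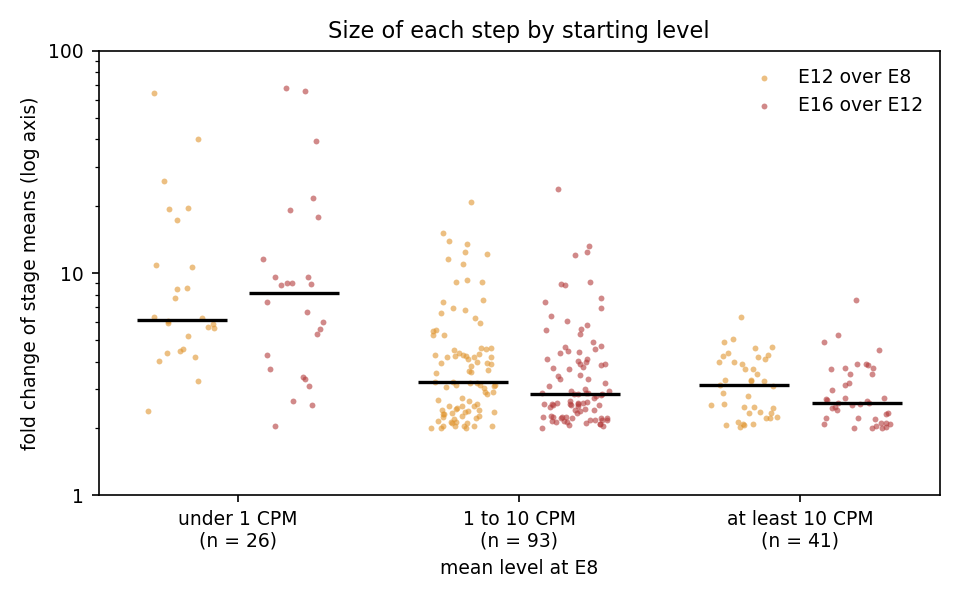
Fold change of stage means (log axis) in the first step (E12 over E8, orange) and in the second (E16 over E12, red) for the 160 genes, divided by their mean level at E8. Points are genes and bars are medians; the genes under 1 CPM at E8 have medians of 6.18 and 8.10, and those at 10 CPM or more have medians of 3.13 and 2.60.

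Of the routes by which genes reached a much higher level at the end of looping, the steady rise held the most genes at these limits. At least 4-fold more at E16 than at E8, with at least 10 CPM at E16, was found for 370 genes, 2.61% of those tested. Of these, 160 (43.2%) were the steadily rising genes. Another 111 (30.0%) were at least 2-fold higher at E12 than at E8 but less than 2-fold higher at E16 than at E12, and 13 of the 370 were lower at E16 than at E12. The remaining 99 (26.8%) were less than 2-fold higher at E12 than at E8 but at least 2-fold higher at E16 than at E12, and 20 of the 370 were lower at E12 than at E8. With total counts in place of TMM the 3 routes held 133, 83 and 108 genes in the same order. Among all 14172 genes, 1134 were at least 2-fold higher at E12 than at E8 and 1985 at E16 than at E12, and 240 in both steps. Of those 240, 80 stayed under 10 CPM at E16 and were left out of the group.

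The limits of the choice cut through a continuous range. The 3 genes closest inside the limit for the first step had folds of 2.005, 2.014 and 2.016, and the 3 closest outside it 1.996, 1.992 and 1.989. For the second step the values were 2.001, 2.004 and 2.016 inside and 1.998, 1.987 and 1.963 outside. For the E16 level they were 10.18, 10.37 and 10.41 CPM inside and 9.79, 9.52 and 9.44 CPM outside. The membership of genes near these limits is accordingly uncertain.

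The stage means were also compared in a fit across all 14172 genes, with edgeR's quasi-likelihood test, Benjamini-Hochberg adjustment and a threshold of 0.05. In E12 against E8, 157 of the 160 genes were called higher at E12, where 27.1% of all genes tested were and 55.3% were called in either direction. In E16 against E12, all 160 were called higher at E16, where 28.3% of all genes were and 56.5% were called in either direction. In E16 against E8, all 160 were again called higher, where 23.6% of all genes were and 51.2% were called in either direction. Both steps were called for 157, against 4.16% of all genes. Since these contrasts chose the genes, the counts describe how large their rise was relative to the spread between pools and support nothing further. The share of higher genes in the background depended on scaling. Of all calls, 49.0% were higher in E12 against E8 with TMM and 29.5% with total counts, and for E16 against E8 the shares were 46.0% and 33.3%. The median log2 fold change of all genes for these comparisons was -0.26 and -0.24 with total counts, against -0.01 and -0.06 with TMM.

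The libraries of successive stages were separated for nearly every gene of the group. Every E12 library exceeded every E8 library for 158 of the 160 genes, against 30.7% of all genes tested. Every E16 library exceeded every E12 library for 159, against 30.5%. Both held for 157, against 5.26%. The choice required stage means to at least double in these same libraries, so these counts describe the group and support nothing further. The 3 genes that were not called in the first step had folds of 2.00, 2.22 and 5.27 there, with edgeR adjusted p-values of 0.20, 0.062 and 0.070. The one with a fold of 5.27 had 5, 87 and 0 counts in E8 replicates 1, 2 and 3, so E8 replicate 2 set its starting level. The one with a fold of 2.22 went on to rise 23.9-fold from E12 to E16, with 131, 252 and 397 CPM in the E16 replicates.

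Adding the share of reads outside the annotation to the fit left fewer of these calls. With that covariate, 74 of the 160 genes were called higher at E12 than at E8 (2.58% of all genes tested), 127 higher at E16 than at E12 (8.62%), and 64 in both steps (0.804%). The log2 fold change was positive in both steps for 156 of the 160, in the same libraries that chose them, and for 19.9% of all genes tested. Their median log2 fold change was 1.55 in the first step and 1.86 in the second, against 1.88 and 1.55 without the covariate, and the median standard error was 0.42 and 0.41, against 0.25 and 0.22. The E12 libraries had a lower share than those of both other stages, so in the 2 steps through E12 the share and the stage cannot be told apart. The fit held a mean for each stage, so the effect of the share was estimated from differences between libraries of the same stage. These were largest among the 3 E12 libraries (SD of the share 2.79, against 0.316 at E8 and 0.948 at E16). The values with the covariate therefore rest mainly on those 3 libraries. The E8 and E16 libraries had similar shares, and in E16 against E8 all 160 genes were called higher with the covariate too (26.2% of all genes tested), with a median log2 fold change of 3.43, against 3.48 without it. Similar shares left the covariate little to change in these folds, and the genes were chosen for a rise in these libraries. The part of the share in the rise was therefore not tested by these values.

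Genes were also chosen anew from 2 replicates of each stage, and their levels were described in the libraries left out. This division by replicate number was decided after the data had been seen. The limits had also been set with results from all 9 libraries known. Of the genes chosen without replicates 1, 2 and 3, 142, 121 and 139 in that order were among the steadily rising genes. Each stage had 1 library left out, so the shares describe these libraries and are no independent test of the rise. Without replicate 1, the same limits took 164 genes, and in the held-out replicate-1 libraries 162 of them were higher in both steps and 112 (68.3%) at least 2-fold higher in both. Among all genes tested, 21.6% were higher in both held-out steps and 1.61% at least 2-fold higher in both. Without replicate 2 they took 155 genes, of which 147 were higher in both held-out steps and 84 (54.2%) at least 2-fold higher in both, against 13.5% and 1.36% of all genes. Without replicate 3 they took 149 genes, of which 148 were higher in both and 109 (73.2%) at least 2-fold higher in both, against 16.2% and 1.57% of all genes. The median held-out folds of the chosen genes were 2.82, 4.12 and 3.32 for E12 over E8 and 3.17, 2.79 and 3.25 for E16 over E12, with replicates 1, 2 and 3 held out in that order and 0.1 CPM added to each level.

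The 160 genes varied more between replicate pools than the typical gene. Their median coefficient of variation over the 3 libraries of a stage was 20.03% at E8, 19.5% at E12 and 16.7% at E16, against 9.69%, 16.9% and 12.1% for all genes tested. The order was the same among better counted genes. Among genes with at least 10 CPM at the stage in question, the medians were 14.3% for 41 of the 160 and 7.55% for all such genes at E8, 16.8% for 89 of the 160 and 14.7% for all at E12, and 16.7% for all 160 and 10.3% for all at E16. The shared lower limit of 10 CPM does not make the levels of the compared genes alike. The difference was not tested, and neither was the part of the choice, which used the means of these same libraries. At E16 the highest library was a median of 1.37 times the lowest, and for 17 of the 160 it was more than 2 times the lowest, up to 4.66. Of these 17, 10 were highest in E16 replicate 2, which was the highest E16 library for 50.0% of the 160 and 41.6% of all genes tested. The E16 ranges are not given here for all genes, so whether those of the 160 are unusual cannot be told.

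E12 replicate 2 was the highest E12 library for most of these genes, which share the same libraries and are not independent replicates. Of the 160, 105 (65.6%) had their highest E12 level in replicate 2, against 35.4% of all genes tested. Replicate 1 was highest for 37 (23.1%, against 42.1% of all genes) and replicate 3 for 18 (11.2%, against 22.5%). Over all genes tested, replicate 1 was the E12 library that differed most from the others. Its chi-square per degree of freedom was 84.6 against replicate 2 and 60.4 against replicate 3, where replicates 2 and 3 gave 28.4. With total counts in place of TMM, replicate 2 was highest for 79 of the 160 (49.4%), against 21.1% of all genes. E12 replicate 2 also had the lowest share of reads outside the annotation among the 9 libraries, 11.03%, against 16.6% in E12 replicate 1 and 13.5% in E12 replicate 3, and the lowest TMM factor, 0.860. The part of either in the higher levels was not tested. The E12 mean also entered the choice of genes, and the part of the choice was not tested either. Without E12 replicate 2 the same limits took 158 genes, 144 of them among the 160. At E8 the 160 genes were most often highest in replicate 1 (67, or 41.9%, against 30.5% of all genes), and at E16 in replicate 2 (80, or 50.0%, against 41.6%).

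**Figure D5:**
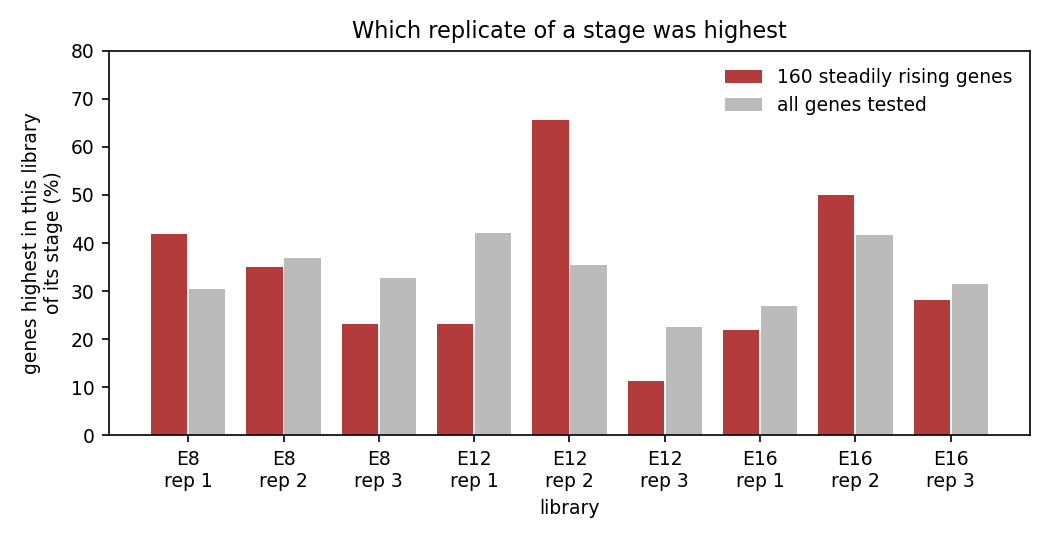
Share of genes (%) whose highest level among the 3 libraries of a stage was found in the library named below the bars, with TMM scaling, for the 160 steadily rising genes (red) and all 14172 genes tested (grey). E12 replicate 2 is highest for 65.6% of the steadily rising genes, against 35.4% of all genes.

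Single libraries decided the membership of 55 of the 160 genes. With each library left out in turn, the same limits took between 139 and 182 genes, and 105 of the 160 were taken in all 9 choices. The smallest number came without E16 replicate 2, when 135 of the 139 were among the 160, and the largest without E8 replicate 2, when 157 of the 182 were. With total counts in place of TMM factors 133 genes were taken, 125 of them among the 160, and with DESeq2's size factors 170 were taken, all 160 among them.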

How the data were processed

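The deposited file holds the authors' counts of reads for each Ensembl gene ID in 9 libraries, not normalized, and 5 rows of reads assigned to no gene, which served only as library measures. The submitters' processing notes name FastQC 0.11.9, cutadapt 3.1, Trim Galore, HISAT2 2.2.1, HTSeq 0.13.5, DESeq2 and the build GRCg6a. The annotation release and strand setting are not given in the sources used here, so genes that overlap, lie antisense to each other or have a near-identical copy may have wrong counts.

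Samples were grouped by title. Genes with at least 1 CPM in 3 or more libraries were kept (14172), scaled with TMM and fitted with 3 stage means over all 9 libraries in edgeR 4.0.16 (robust quasi-likelihood test, R 4.3.3), with Benjamini-Hochberg adjustment over all genes. A standard error is the size of the log2 fold change over the root of its F statistic. The scripts were tested on simulated data. No pair of replicates agreed within counting error (chi-square per degree of freedom 8.67 to 84.6), which separate pools need not do, so each library was counted as 1 replicate.

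The genes and the limits that chose them were set with earlier results of these data known. The named genes are the one with the highest E16 level and the one with the largest rise, since without symbols at most 2 were to be named. Planned counts over pathway and marker lists and a search of promoters need gene symbols and were not run. Alternatives were DESeq2 1.42.0, other scalings, filters and limits, each library left out, the replicate number as a block and a library covariate.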

Additional observations from a re-analysis of the deposited data

Results flagged for a closer look

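Apart from the reads outside the annotation, the rows of reads assigned to no gene are not used in the comparisons above and hold more than 0 reads in each library. Unaligned reads averaged 7.47% over the 9 libraries. Poorly aligned reads averaged 5.09%, reads shared by overlapping genes 2.29% and reads with several alignments 2.17%. No control samples exist against which to read these shares.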

How the results depend on the processing

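With the library share of unannotated reads as a covariate, 523 genes were called in E12 against E8 (7831 without it), 2656 in E16 against E12 (8012), 8051 in E16 against E8 (7260, with 7202 shared) and 64 of the 160 in both steps (157), and the cause was not tested. Of all genes tested, 0.804% were called higher in both steps with the covariate and 4.16% without it. By construction, a minimum of 1.5-fold per step took 335 genes and a minimum of 3-fold took 47. A limit of 1 CPM at E16 in place of 10 CPM took 240 genes, 1.5 times the 160. All other alternatives kept these counts within 1.5 times. Leaving out each library gave 6149 to 8953 genes in E12 against E8, 6532 to 8865 in E16 against E12, 5840 to 8061 in E16 against E8, 151 to 158 of the 160 called in both steps, and 139 to 182 genes chosen. The highest number of genes called in each of the 3 comparisons came without E12 replicate 1. The 2 named genes kept their direction and stayed called in both steps under every alternative run. Both were picked for their level or rise in these same libraries, so their calls support nothing further. With the covariate, the first step of ENSGALG00000004521 had an edgeR adjusted p-value of 0.039. Over the libraries left out, the log2 fold change of ENSGALG00000033171 ranged from 5.75 to 6.44 in the first step and from 2.80 to 3.45 in the second, and with the covariate it was 4.93 and 4.15. Libraries with the same replicate number come from different embryos, and of 9 correlations between their deviations from the stage means 3 were over 0.1 (-0.16 to 0.19). With the replicate block, 7640, 7834 and 7150 genes were called in the 3 comparisons, and 158 of the 160 in both steps. The share of all genes called in both steps is not given here for the block or the left-out libraries. Since these contrasts chose the 160, the counts of them called under the alternatives support nothing further. Among the genes under 1 CPM at E8, depth limits the starting level of those with the fewest counts, of which the lowest had 3 over the E8 libraries.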

Other observations

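A rise of at least 2-fold in each step to at least 10 CPM at E16 was found for 160 genes, against 63 that met the mirrored limits, a fall of at least 2-fold in each step from at least 10 CPM at E8. The fallers had a median fold of 2.55 for E8 over E12 and 3.20 for E12 over E16, and the most abundant of them had 1236 CPM at E8. With total counts the numbers were 133 rising and 86 falling, and with DESeq2's size factors 170 rising and 58 falling.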
